A study of Mus musculus with 6 samples.

Results

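Taste receptors are G protein-coupled receptors that taste cells of the tongue and chemosensory (tuft) cells of other epithelia carry on their surface. The 9 genes described here are 6 bitter receptor genes of the Tas2r family and all 3 members of the Tas1r family, out of 28030 genes named on the array. Each had 1 probe, and the 9 probes were found by gene name on all 6 arrays. The bitter receptors were selected on these same array signals, chosen by being measurable and higher in the Meis1-high gate, so their levels in Meis1-high against the other gates are a description and carry no test.

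RNA came from thymic epithelial cells of C57BL/6 mice aged 4 weeks. All mice carried Tg(Meis1-EGFP)FO156Gsat/Mmcd, a bacterial artificial chromosome that places EGFP under Meis1 regulatory sequence, so there was no group without the transgene. Cells without CD45 and with EpCAM were sorted into 3 gates of 2 samples each, and each sample pooled 6 mice. Small, brightly fluorescent cells made up the Meis1-high gate, larger cells of intermediate fluorescence the Meis1-low gate, and small non-fluorescent cells the Meis1-negative gate. Between Meis1-low and either other gate, EGFP level and size cannot be told apart. Amplification started from 10 ng of RNA per sample, and the Cy3-labelled product went onto a one-colour array.

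A bitter receptor is encoded by a gene with a single coding exon and acts alone, whereas Tas1r proteins act in pairs: Tas1r1 with Tas1r3 detects amino acids (umami), and Tas1r2 with Tas1r3 detects sugars. Both kinds signal through a G protein whose beta and gamma subunits activate the phospholipase Plcb2, which leads to calcium release through the receptor Itpr3 and to opening of the channel Trpm5. Cells with this cascade are known in the thymic medulla, where they are called thymic tuft cells.

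The probes that the largest bitter receptor values and the Tas1r2 values turn on are shown here as designed for the array. They have 60 bases each and are in lower case with no part marked.
Tas2r105: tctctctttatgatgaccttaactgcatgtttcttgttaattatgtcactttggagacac
Tas2r108: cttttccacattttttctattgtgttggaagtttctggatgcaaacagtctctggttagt
Tas2r118: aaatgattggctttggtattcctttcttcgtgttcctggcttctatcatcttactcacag
Tas1r2: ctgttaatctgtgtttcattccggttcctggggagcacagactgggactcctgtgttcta
On mm9, per the file headers' build, these lie at chr6:131636867-131636926 (minus strand), chr6:40443824-40443883 (plus strand), chr6:23919457-23919516 (minus strand) and chr4:139226073-139226132 (plus strand). Bitter receptors are a family of similar sequences, and the closest other probe on the array differed from a member's probe by at least 22 edits out of 60 bases. Whole probes were compared with whole probes, which sample other stretches of other transcripts. The distance therefore does not show whether a member's probe could also bind the transcript of another receptor, with or without a probe on this array.

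Levels are given on a log2 scale as signal over the 75th percentile of the same array, so that 0 is the level of a gene at that percentile. That percentile was a signal of 73.3 and 136.5 in the Meis1-high pools, 158.6 and 163.8 in the Meis1-low pools, and 114.2 and 165.2 in the Meis1-negative pools. A probe is called well above background where the scanner software marked it so, which held for between 53.1% and 69.6% of an array's spots. Meis1 itself had levels of 0.24 and 0.12 in the Meis1-high pools, -2.35 and -1.61 in the Meis1-low pools, and -3.20 and -0.99 in the Meis1-negative pools. Meis1-negative replicate 1 stood apart. The median level of 17 measured thymocyte markers was 3.72 on that array and -0.19 on replicate 2, against -1.79 and -1.71 in Meis1-high. Ptprc, the gene of CD45, had levels of -0.69 and 0.37 in the Meis1-high pools, at most 0.43 in the Meis1-low pools, and 5.16 and 3.17 in the Meis1-negative pools. The median of 9 pan-leukocyte genes was 1.09 and 1.06 in the Meis1-high pools, 1.96 and 1.35 in the Meis1-low pools, and 3.29 and 2.37 in the Meis1-negative pools. Both Meis1-negative arrays thus stood above the other 4, so leaving out replicate 1 does not remove this difference, and its part in the receptors' differences was not tested. Epcam, the surface marker of the sort, had levels of 2.58 and 4.41 on the Meis1-negative arrays. Replicate 1 of every gate lay on slide 1 and replicate 2 on slide 2, and the receptors' differences from Meis1-negative are given for each slide where they are not bounds. Each gate had 2 pools. Every limma p and SE rests on the spread between pools of the same gate, pooled over the 3 gates (3 residual degrees of freedom). That spread is also drawn toward the spread of all genes tested (4.36 prior degrees of freedom). An SE is therefore not the spread of a gene's own pools alone. No gene of 18205 tested passed an adjusted p of 0.05 in any of the 3 comparisons (limma, Benjamini-Hochberg).

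All 6 bitter receptors lay higher on both Meis1-high arrays than on both Meis1-low arrays, and higher than on both Meis1-negative arrays. Of all genes tested, 22.7% lay so in Meis1-high against Meis1-low and 19.3% in Meis1-high against Meis1-negative, but the choice of the bitter receptors used both contrasts, so nothing is read from their count. With each receptor that was dim on both arrays of the other gate set to its lower bound (3 of the 6 against Meis1-low, 2 against Meis1-negative), their median log2 difference was 2.76 between Meis1-high and Meis1-low and 2.33 between Meis1-high and Meis1-negative, beside -0.15 and -0.10 over all genes tested. With Meis1-negative replicate 1 left out, the differences from Meis1-negative ran from 0.97 for Tas2r140 to 4.41 for Tas2r118. Their size depended on the background correction. With the normexp correction in place of the scanner's subtraction, the difference between Meis1-high and Meis1-low was 2.49 for Tas2r105, 1.99 for Tas2r108, 1.72 for Tas2r118, 0.30 for Tas2r140, 0.17 for Tas2r116 and 0.05 for Tas2r135. That correction adds an offset of 50 to every signal before logs, which draws differences between dim signals toward 0. Tas2r116, for example, had background-subtracted signals of 10.0 and 30.9 in the Meis1-high pools and 5.30 and 2.63 in the Meis1-low pools. How much of the smaller values comes from the offset was not tested. In sorted pools such as these, fewer cells that make a receptor and less of its RNA per cell cannot be told apart.

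Tas2r105, which in mice is the receptor for the bitter compound cycloheximide, had levels of 1.41 and 1.98 in the Meis1-high pools, -4.48 and -3.46 in the Meis1-low pools, and -1.85 and -0.76 in the Meis1-negative pools. As background-subtracted signals these were 194 and 538 in the Meis1-high pools, 7.10 and 14.9 in the Meis1-low pools, and 31.6 and 97.6 in the Meis1-negative pools. The 3 gates did not overlap, and the order was Meis1-high, Meis1-negative, Meis1-low. The mean level was 1.69 ± 0.40 in Meis1-high (SD, n = 2), -3.97 ± 0.72 in Meis1-low and -1.31 ± 0.77 in Meis1-negative. Meis1-high lay 50.6-fold above Meis1-low, with log2 differences of 5.89 on slide 1 and 5.43 on slide 2, and in Meis1-low the probe was marked as well above background in replicate 2 alone. Against Meis1-negative the fold was 7.99, with log2 differences of 3.26 on slide 1 and 2.74 on slide 2. Leaving out Meis1-negative replicate 1 gave a difference of 2.45.

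Tas2r108, known in mice as a receptor for denatonium, was well above background on all 6 arrays. Its levels were 1.95 and 1.53 in the Meis1-high pools, -1.74 and -2.37 in the Meis1-low pools, and -2.40 and -1.47 in the Meis1-negative pools. Both Meis1-high arrays stood above the other 4, while Meis1-low and Meis1-negative overlapped. The difference was 3.79 against Meis1-low (3.68 and 3.90 on the slides), a 13.8-fold ratio, and 3.67 against Meis1-negative (4.35 and 2.99 on the slides), a 12.7-fold ratio.

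Tas2r118 had levels of 1.97 and -0.07 in the Meis1-high pools, -4.83 and -4.58 in the Meis1-low pools, and -3.08 and -3.46 in the Meis1-negative pools. Among the 6 chosen receptors, this one differed most between the 2 Meis1-high pools, with a mean level of 0.95 ± 1.44 (SD, n = 2), yet the lower of them still lay above all 4 other arrays. Its probe was well above background on both Meis1-high and both Meis1-negative arrays and on neither Meis1-low array. Meis1-high was therefore at least 36.6-fold higher than Meis1-low. Such a bound sets the Meis1-high mean against, on each dim array, the higher of the probe's own signal and the lowest signal that any probe well above background had there. Against Meis1-negative the ratio was 18.6-fold, with log2 differences of 5.05 on slide 1 and 3.39 on slide 2.

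**Figure D1:**
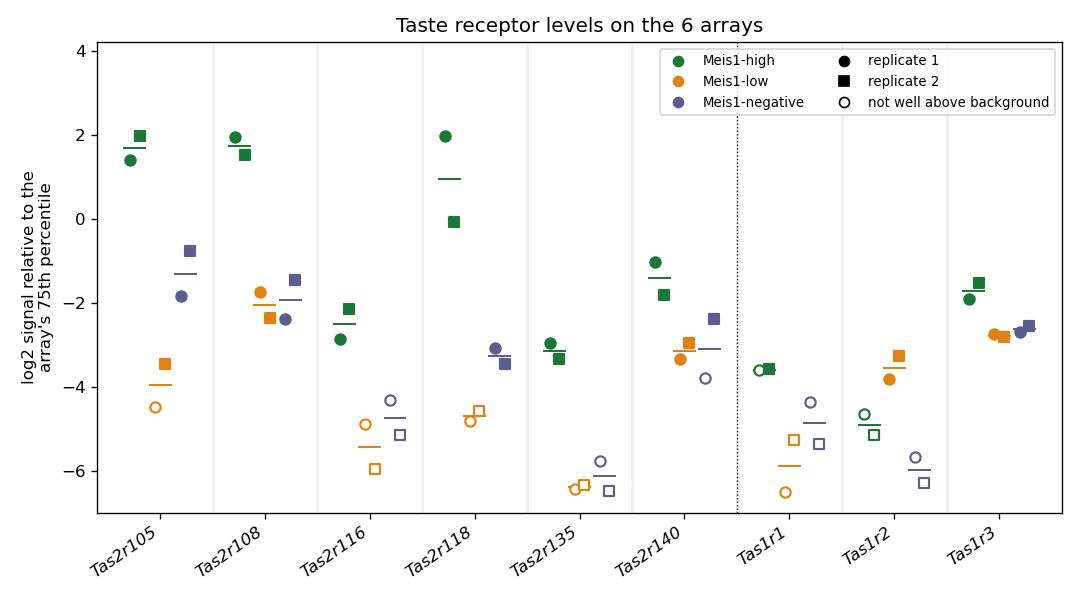
Levels of the 9 taste receptor genes on each array, as log2 signal relative to the array's 75th percentile (vertical axis), with a circle for replicate 1, a square for replicate 2, an open symbol where the probe was not well above background, and a short line at the mean of the gate. Both Meis1-high symbols lie above the other 4 for every bitter receptor left of the dotted line, whereas Tas1r2 is filled only in Meis1-low.

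Tas2r116 and Tas2r135 were measurable in Meis1-high alone. Tas2r116 had levels of -2.87 and -2.15 in the Meis1-high pools, -4.90 and -5.96 in the Meis1-low pools, and -4.33 and -5.15 in the Meis1-negative pools, and none of the last 4 was well above background. It was at least 3.33-fold higher in Meis1-high than in Meis1-low and at least 2.82-fold higher than in Meis1-negative. Tas2r135 had levels of -2.97 and -3.35 in the Meis1-high pools, -6.45 and -6.35 in the Meis1-low pools, and -5.77 and -6.48 in the Meis1-negative pools. On those last 4 arrays its signal had been replaced by a surrogate of the scanner software, so only bounds can be given, at least 2.11-fold higher in Meis1-high than in Meis1-low and at least 1.79-fold higher than in Meis1-negative. Both genes therefore have no order between Meis1-low and Meis1-negative.

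Tas2r140 was measurable in all 3 gates. Its levels were -1.03 and -1.82 in the Meis1-high pools, -3.34 and -2.96 in the Meis1-low pools, and -3.80 and -2.39 in the Meis1-negative pools, where replicate 1 was not well above background. The gap was 1.73 against Meis1-low (2.31 and 1.14 on the slides) and 1.67 against Meis1-negative (2.77 and 0.57 on the slides). The gap to Meis1-negative was 0.97 when Meis1-negative replicate 1 was left out.

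The array holds probes for 13 bitter receptor genes, of 35 protein-coding ones in the reference table, and the 7 that are not members were well above background on 1 array at most. Just outside the choice were Tas2r136, with levels of -1.50 and -6.31 in Meis1-high and only the first well above background, and Tas2r102, with -5.48 and -2.97 and only the second. Tas2r107 was well above background on 1 Meis1-low array (-3.18) and on no other. The remaining 4, Tas2r110, Tas2r119, Tas2r130 and Tas2r139, were so on no array, with levels between -5.04 and -6.36 in Meis1-high. Just inside the choice stood Tas2r135 and Tas2r116, whose Meis1-high levels are given above. On this scale these 4 probes without measurable signal had a higher mean level in Meis1-high than in either other gate. Tas2r110, for example, had levels of -5.05 and -5.95 in the Meis1-high pools, -6.54 and -6.40 in the Meis1-low pools, and -5.91 and -6.55 in the Meis1-negative pools. Their part in the differences of the dimmest members was not tested.

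Counted over the whole family, 6 of 13 bitter receptor probes (46.2%) were well above background on both Meis1-high arrays. For both Meis1-low arrays the count was 2 (15.4%) and for both Meis1-negative arrays 3 (23.1%). The 6 are the members themselves, chosen for being measurable and higher in Meis1-high, so nothing is read from the order of these shares. Over all 41174 probes these shares were 50.8%, 58.0% and 51.6%. Odorant receptors, a far larger family of chemosensory receptors with 959 probes here, were measurable in 8.65%, 8.76% and 6.05%. Vomeronasal receptors, which detect pheromones and had 146 probes, were measurable in 6.16%, 5.48% and 3.42%. Among 109 odorant receptor genes tested, 89 were higher in Meis1-high than in Meis1-low, beside 44.7% of all genes tested. Their median log2 difference was 0.83, beside -0.15 over all genes. Against Meis1-negative 96 were higher, beside 46.4%, with a median of 0.72 beside -0.10. Bitter receptor probes without measurable signal also lay higher in Meis1-high on this scale, and the part of dim signals in these counts was not tested. Whether the families differ was not tested.

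**Figure D2:**
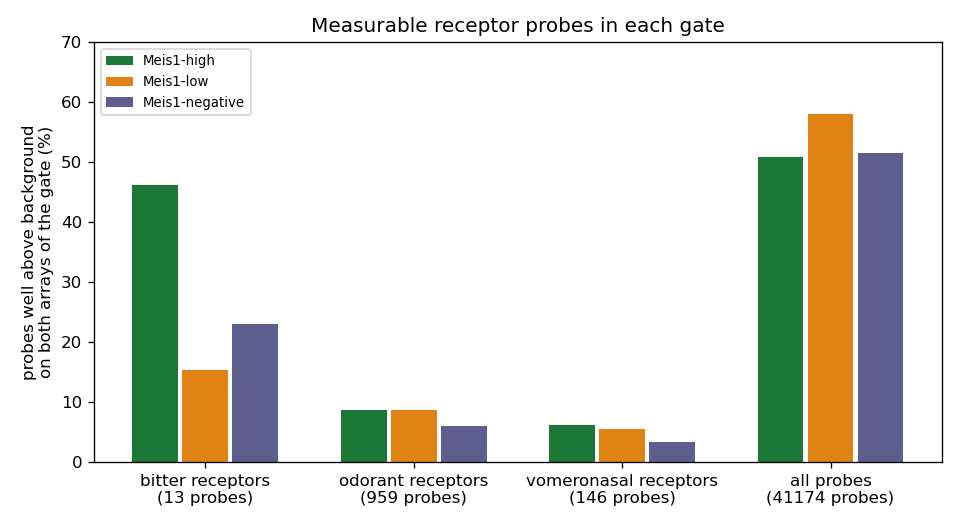
Share of probes that were well above background on both arrays of a gate (vertical axis, percent) for bitter, odorant and vomeronasal receptors and for all probes, with 1 bar for each gate. For bitter receptors the Meis1-high bar stands at 46.2%, above 15.4% for Meis1-low and 23.1% for Meis1-negative. The probes in that Meis1-high bar are the members, which were chosen for being measurable and higher there. For odorant receptors, which were not chosen so, all 3 bars stand between 6.05% and 8.76%.

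The comparison of Meis1-low with Meis1-negative was not used to choose the members. In it Tas2r105 had a log2 difference of -2.66 ± 0.71 (SE, n = 2 per gate), with -2.63 on slide 1, -2.70 on slide 2 and -3.21 when Meis1-negative replicate 1 was left out, and both Meis1-low arrays lay below both Meis1-negative arrays. This did not pass the threshold (limma adjusted p = 0.501). Of all genes tested, 15.8% lay below in this way. Its unadjusted p was under 0.05, as for 8.09% of all genes tested. With normexp the difference was -0.45. Tas2r118 differed by -1.44 ± 0.79 (adjusted p = 0.618), with -1.75 and -1.12 on the slides, again with both Meis1-low arrays below both Meis1-negative arrays, and was at least 1.96-fold lower in Meis1-low, although with normexp the sign turned (0.30). Tas2r108 differed by -0.12 ± 0.66 (adjusted p = 0.973) and Tas2r140 by -0.06 ± 0.72 (adjusted p = 0.989), with slides of opposite sign for each (0.66 and -0.90 for Tas2r108, 0.46 and -0.57 for Tas2r140), and both turned positive with normexp (0.32 and 0.33). So 2 of the 4 bitter receptors that can be placed in both gates or bounded there lay lower in Meis1-low on every array, and the other 2 overlapped.

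**Figure D3:**
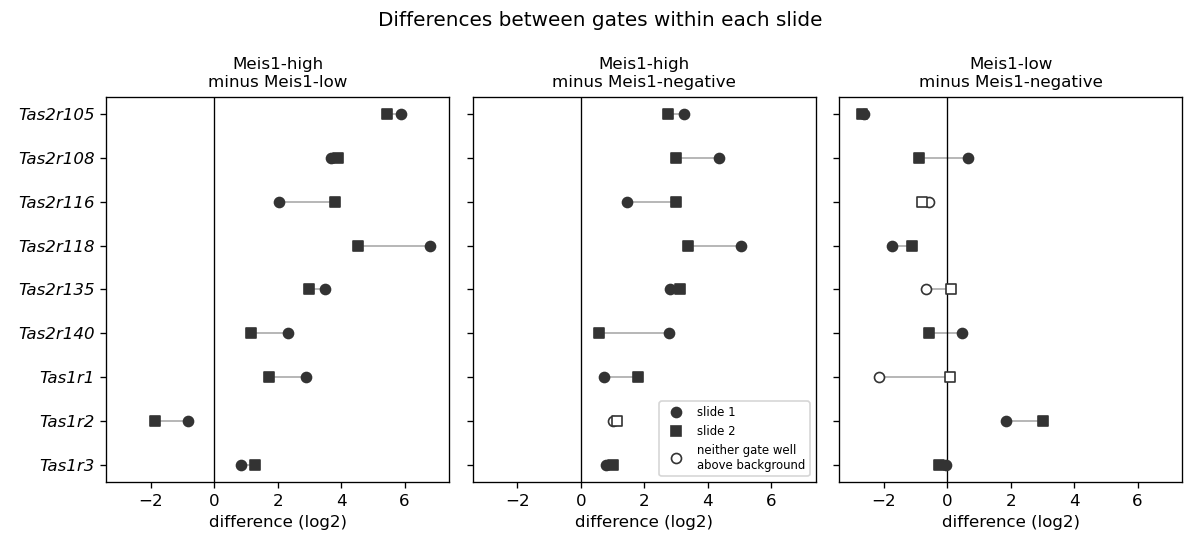
Log2 difference between 2 gates for each taste receptor gene on slide 1 (circle) and slide 2 (square), in 3 panels with the same horizontal axis and a line at 0. An open symbol marks a gene that was well above background in neither of the gates compared. The bitter receptors lie right of 0 in the first 2 panels on both slides, Tas2r105 lies near -2.66 in the third, and Tas1r2 lies left of 0 in the first and right of 0 in the third.

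The Tas1r genes were taken as a whole family. Tas1r3 and Tas1r1 had their highest levels in Meis1-high and Tas1r2 in Meis1-low, but Tas1r1 and Tas1r2 were near background. Tas1r3, the partner in both the sweet and the umami receptor, was well above background on all 6 arrays, with levels of -1.91 and -1.54 in the Meis1-high pools, -2.76 and -2.82 in the Meis1-low pools, and -2.71 and -2.57 in the Meis1-negative pools. Both Meis1-high arrays lay above the other 4, as for 12.8% of all genes tested. The log2 difference was 1.06 ± 0.59 against Meis1-low (SE, n = 2 per gate, limma adjusted p = 0.497) and 0.91 ± 0.59 against Meis1-negative (adjusted p = 0.640, with 0.80 and 1.02 on the slides), and neither passed the threshold. With normexp the first was 0.12. Meis1-low and Meis1-negative differed by -0.15 ± 0.59 (adjusted p = 0.957, with -0.05 and -0.25 on the slides).

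Tas1r2, the sweet-specific partner, had its highest levels in Meis1-low. Its levels were -4.66 and -5.15 in the Meis1-high pools, -3.82 and -3.28 in the Meis1-low pools, and -5.68 and -6.31 in the Meis1-negative pools, and only the Meis1-low arrays were well above background. The lowest level that any probe well above background had was -3.21 on Meis1-high replicate 1, against -4.31 and -4.17 on the Meis1-low arrays. Both Meis1-low levels of Tas1r2 lay below -3.21, where no probe was marked so on Meis1-high replicate 1. Both Meis1-low arrays stood above the other 4, as for 15.7% of all genes tested. Tas1r2 entered the test through the Meis1-low arrays alone, so its being higher there was favoured by the filter on dim probes, and nothing is read from these shares or from its p values. Meis1-high lay below Meis1-low by a log2 difference of -1.36 ± 0.63 (SE, n = 2 per gate, limma adjusted p = 0.421), a non-overlap in this direction that 31% of all genes tested shared. The difference of Meis1-low from Meis1-negative was 2.44 ± 0.63 (limma adjusted p = 0.477), with 1.86 and 3.03 on the slides, and both arrays lay above both, as for 23.5% of all genes tested. With Meis1-negative replicate 1 left out it was 2.76, with normexp 0.68 and with a floor on dim signals 0.45. The difference of Meis1-high from Meis1-low was -0.32 with normexp and -0.07 with that floor. As bounds, Meis1-low was at least 1.37-fold higher than Meis1-negative, and Meis1-high at least 1.05-fold lower than Meis1-low. Tas1r1, the umami-specific partner, was well above background only on Meis1-high replicate 2 and was not tested. Its levels were -3.62 and -3.57 in the Meis1-high pools, -6.50 and -5.28 in the Meis1-low pools, and -4.36 and -5.37 in the Meis1-negative pools. Both Meis1-high arrays thus lay above the other 4, as for 12.8% of all genes tested. On Meis1-high replicate 1 its level lay below -3.21, where no probe was marked well above background. By that mark, neither partner of Tas1r3 was measurable in both pools of Meis1-high, the gate where Tas1r3 itself was highest.

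Across the 6 arrays the 6 bitter receptors varied together, with a Pearson r between 0.65 for Tas2r116 with Tas2r140 and 0.97 for Tas2r118 with Tas2r135, over 15 pairs. These values follow in part from choosing genes that were all high on the same 2 arrays. They also rest on signals not well above background, such as those of Tas2r116 and Tas2r135 on every Meis1-low and Meis1-negative array. The same holds for Tas2r118 on both Meis1-low arrays, and the mean of the bitter receptors includes all of these. With the mean of the bitter receptors, Tas1r3 had an r of 0.95 and Tas1r2 an r of -0.27. The genes outside the list with the most similar pattern, of 10415 whose levels spanned at least 2, were the transcript 6720470G18Rik (r = 0.996), NAP057196-1 (0.994), the natriuretic peptide receptor gene Npr2 (0.989), Rcn3 (0.986), the desmosomal cadherin gene Dsg3 (0.986), Antxr1 (0.983), AK034923 (0.983), the collagen crosslinking enzyme gene Lox (0.982), the sphingosine phosphate receptor gene S1pr3 (0.982) and the interferon-induced gene Xaf1 (0.982). No gene of the taste cascade was among these 10, and Plcb2 came 126th with an r of 0.93 and Trpm5 470th with 0.85. Each r rests on 6 arrays that share the same slides and scaling, and is given as a description only.

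Of 14 genes listed for taste transduction downstream of the receptors, 10 had a probe and all 10 were tested. In Meis1-high against Meis1-low 8 of the 10 were higher, beside 44.7% of all genes tested, and 0 passed the threshold. The median log2 difference was 1.56 beside -0.15 over all genes, and it was 0.64 with normexp. In 6 of the 10, both Meis1-high arrays lay above both Meis1-low arrays, beside 22.7% of all genes. Against Meis1-negative all 10 were higher, beside 46.4% of all genes tested, and 0 passed. The median was 1.70, with 3.28 on slide 1 and 0.82 on slide 2, beside -0.10 over all genes. In 5 of the 10, both Meis1-high arrays lay above both Meis1-negative arrays, beside 19.3% of all genes. Without Meis1-negative replicate 1, 8 of the 10 were higher and the median was 1.02. With normexp the median was 0.78.

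The gate order of the cascade was not always that of the receptors. Trpm5, the cation channel, had levels of 1.83 and 1.49 in the Meis1-high pools, -1.25 and -1.25 in the Meis1-low pools, and -3.32 and -1.82 in the Meis1-negative pools, so it was lowest in Meis1-negative on both slides. Plcb2, the phospholipase, had levels of -0.24 and -0.16 in the Meis1-high pools, -3.90 and -3.21 in the Meis1-low pools, and -2.12 and -1.54 in the Meis1-negative pools. Like Tas2r105, it was lowest in Meis1-low on both slides. Between Meis1-high and Meis1-low, Plcb2 differed by 3.36 ± 0.62 (limma adjusted p = 0.249) and Trpm5 by 2.91 ± 0.70 (adjusted p = 0.254).

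The G protein subunit genes Gng13 and Gnb3 were high in Meis1-high too. Gng13 had levels of 3.39 and 2.83 there, 1.17 and 0.63 in the Meis1-low pools, and -1.54 and 0.94 in the Meis1-negative pools. Gnb3 had levels of 1.09 and 1.51 in the Meis1-high pools, -1.69 and -1.05 in the Meis1-low pools, and -4.57 and -0.91 in the Meis1-negative pools. For both genes Meis1-low and Meis1-negative overlapped, and the low value was that of Meis1-negative replicate 1. The potassium channel gene Kcnk1 differed by 2.19 ± 1.03 between Meis1-high and Meis1-low (adjusted p = 0.430) and Pde1a, a phosphodiesterase gene, by 0.94 ± 1.02 (adjusted p = 0.744). Differences were small for the more widely expressed members, with Gnb1 at 0.32 ± 0.65 and Itpr3 at -0.35 ± 0.62, while Entpd2, which degrades the taste transmitter ATP, stood at 0.61 ± 0.85 and the channel gene Trpm4 at -0.99 ± 1.27, with adjusted p between 0.781 and 0.869.

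**Figure D4:**
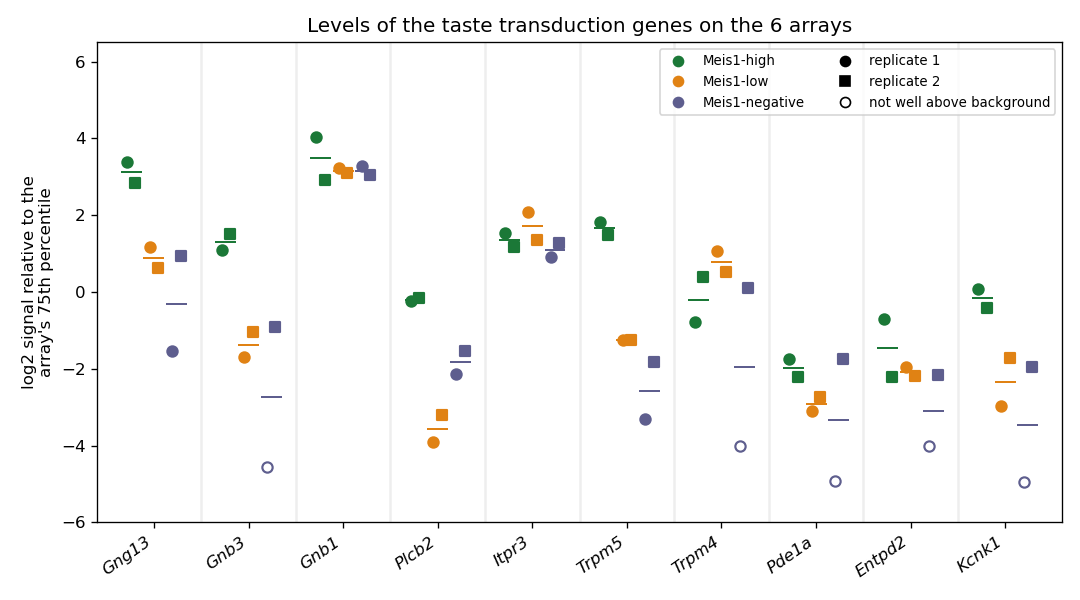
Levels of the 10 measured taste transduction genes on each array, as log2 signal relative to the array's 75th percentile (vertical axis), drawn as for the receptors with open symbols where the probe was not well above background. Trpm5, Gng13, Gnb3, Plcb2 and Kcnk1 are highest on both Meis1-high arrays, and 5 of the 10 genes have an open symbol for Meis1-negative replicate 1.

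Most markers of tuft cells were higher in Meis1-high along with the receptors, without passing the test. Of 21 measured, 20 were higher in Meis1-high than in Meis1-low and 18 higher than in Meis1-negative, beside 44.7% and 46.4% of all genes tested, and 0 passed the threshold in either. The list's median log2 difference was 1.66 against Meis1-low and 1.54 against Meis1-negative, the second being 2.67 on slide 1 and 1.09 on slide 2. Both Meis1-high arrays lay above both of the other gate for 15 and 13 of the 21, beside 22.7% and 19.3% of all genes tested. On Meis1-negative replicate 1 only 11 of the 21 were well above background. Spib was lower in Meis1-high than in Meis1-low (-0.81), and Spib (-0.04), Hpgds (-0.68) and Il17rb (-1.78) were lower than in Meis1-negative. The list's summed level, in multiples of the 75th percentile signal, was 33.95 and 40.4 in the Meis1-high pools, 10.1 and 12.2 in the Meis1-low pools, and 15.5 and 14.6 in the Meis1-negative pools. Thymocyte markers summed to 10.2 and 10.8 in the Meis1-high pools, 14.7 and 11.4 in the Meis1-low pools, and 1208 and 28.2 in the Meis1-negative pools. Of 2 markers chosen after their values were seen, Sh2d6 had levels of 1.67 and 1.91 in the Meis1-high pools, -2.32 and -1.39 in the Meis1-low pools, and -1.58 and -0.15 in the Meis1-negative pools. Dclk1 had levels of 2.93 and 2.84 in the Meis1-high pools, 0.44 and 0.16 in the Meis1-low pools, and -0.80 and 0.64 in the Meis1-negative pools, and both genes were well above background on all 6 arrays. The part of these markers in the receptor differences was not tested.

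Some receptors of this kind need helper proteins to reach the cell surface, and 5 of 8 listed transport genes were measured. Against Meis1-low, 3 of the 5 were higher in Meis1-high and 2 lower, beside 44.7% of all genes tested that were higher. Their median log2 difference was 0.37. The 2 given here lay in opposite directions. Rtp4, a transport protein for bitter receptors that interferon also induces, had levels of 3.16 and 3.28 in the Meis1-high pools, 1.49 and 0.34 in the Meis1-low pools, and 1.81 and 1.70 in the Meis1-negative pools. Its difference was 2.31 ± 0.65 against Meis1-low (adjusted p = 0.258) and 1.47 ± 0.65 against Meis1-negative (adjusted p = 0.491, with 1.35 and 1.58 on the slides), neither passing. Reep1 lay the other way, with levels of -3.82 and -4.17 in Meis1-high, where it was not well above background, and -0.20 and -0.39 in Meis1-low, at least 10.1-fold higher in Meis1-low (limma adjusted p = 0.249).

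The bitter receptor genes lie on chromosome 6 in several clusters. On mm9 the probes of Tas2r105, Tas2r116 and Tas2r140 start at 131636867, 132805728 and 133005174, those of Tas2r108 and Tas2r135 at 40443824 and 42356208, and that of Tas2r118 at 23919457. Most of their nearest neighbours are other bitter receptor genes without a probe (Tas2r103, Tas2r104, Tas2r114, Tas2r123, Tas2r126, Tas2r137 and Tas2r143), and the neighbours Tas2r110 and Rnf148 were well above background on no array. Measured neighbours outside the family differed between Meis1-high and Meis1-low by 0.58 for Prss37 beside Tas2r108 and 0.40 for Smim10l1 beside Tas2r140. Slc13a1 beside Tas2r118 stood at -1.64 and was not well above background on Meis1-high replicate 1. The bitter receptors were chosen by this contrast and their neighbours were not, so nothing is read from smaller differences of the neighbours. Beside the Tas1r genes, Nol9 (next to Tas1r1) differed by 0.05, Aldh4a1 (next to Tas1r2) by -0.10, and Dvl1 and Cptp, on either side of Tas1r3, by -0.53 and -0.67, against 1.06 for Tas1r3 itself. Zbtb48 (next to Tas1r1) and Pax7 (next to Tas1r2) were not tested.

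The promoters of the receptors were searched for the octamer ATTTGCAT and its reverse complement ATGCAAAT, the motif bound by POU factors such as Pou2f3, a regulator of tuft and taste cell development. The motif was chosen after the values were seen. RefSeq windows on GRCm38.p6, from 250 bases before to 50 after the gene start, were given for 5 of the 6 bitter receptors and for all 3 Tas1r genes. The octamer was in 3 of the 5 bitter receptor windows and in 0 of the 3 Tas1r windows, against 532 of 27025 genes with a window (1.97%). Stretches of 60 bases around it are shown here because the 3 sites lie at similar distances, 116, 138 and 135 bases before the gene start, with the octamer in capitals and each read along its gene.
Tas2r118: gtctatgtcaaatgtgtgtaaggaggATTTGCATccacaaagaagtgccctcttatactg
Tas2r108: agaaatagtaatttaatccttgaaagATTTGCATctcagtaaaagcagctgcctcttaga
Tas2r135: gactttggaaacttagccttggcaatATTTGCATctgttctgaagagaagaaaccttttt
These are chr6:23970151-23970210 (minus strand), chr6:40493420-40493479 (plus strand) and chr6:42405360-42405419 (plus strand) on GRCm38.p6. Over the whole family the octamer was in 7 of 31 bitter receptor windows (22.6%). Of these, 4 belong to genes that are no members, at 149, 184, 186 and 228 bases before the gene start. The last of these is the reverse complement. Among odorant receptor genes the octamer was in 25 of 944 (2.65%). It was in neither the Tas2r105 nor the Tas2r140 window, in 2 of 11 taste transduction genes and in 1 of 17 tuft marker genes. A match of letters in these windows is a description and was not set against the levels.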

How the data were processed

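Per the labels, 6 pools (2 per gate) were amplified and hybridised to one-colour Agilent arrays. Per the submitters' processing notes, Agilent Feature Extraction 9.5.3.1 was used, and per the file headers the signal is a background-subtracted intensity, with positions on mm9. The deposited log2 table of the authors, centred per probe and found to match the scaled signals, served as an alternative.

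Outlier spots (53 to 78 per array) and control spots were left out, spots of a probe were averaged, and log2 signals were set relative to each array's 75th percentile. Probes well above background (13 times the background SD, per the file headers) on both arrays of a gate were tested, the brightest probe per gene, 18205 genes in all (limma 3.58.1, R 4.3.3, Benjamini-Hochberg, 0.05). The test was checked on simulated data. Names were updated through RefSeq tables. Members and lists were chosen with earlier results of these data known. The naming rule took all members, the measured cascade genes, the 10 genes most alike, the nearest neighbours and Meis1, Epcam and Ptprc; genes named beyond it come from the lists or were chosen after their values were seen.

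Replicate numbers are slide and scan, per the file headers; deviations of same-numbered arrays correlated at 0.209, 0.128 and 0.125 across genes for the 3 pairs of gates. Alternatives were normexp (offset 50), median and quantile scaling, no filter, a filter on 4 arrays, a floor, every probe, the authors' values, the replicate block and each array left out. Figures used matplotlib 3.10.9 and pandas 2.3.3 in Python 3.11.15.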

Additional observations from a re-analysis of the deposited data

How the results depend on the processing

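Counts of genes called were 0 in the 3 comparisons, and 2357, 1917 and 1473 genes had an unadjusted p under 0.05 in limma. With normexp background correction 230 genes passed for Meis1-high against Meis1-low, 303 for Meis1-high against Meis1-negative and 120 for Meis1-low against Meis1-negative. Under normexp all tested members had the same SE of 0.55, while their SEs differed in the main fit. That fit thus used a shared spread rather than each gene's own, which limits what these counts show. With median scaling 74 passed in the second and 13 in the third comparison, and with a floor on dim signals 24 in the second. With arrays left out in turn, the count was 0 in the first comparison, from 0 to 968 in the second and from 0 to 1281 in the third, the highest values being those without Meis1-negative replicate 2. The median of all genes for Meis1-high against Meis1-negative was -0.20 with median scaling and 0.08 with normexp, beside -0.10, and for Meis1-low against Meis1-negative it was 0.17 with normexp, beside 0.05. The fit with the replicate block called 0 genes in each comparison, and since the design is balanced it left every difference as it was. The median of the taste transduction list was 0.64 for Meis1-high against Meis1-low with normexp, and with arrays left out it ranged from 1.15 to 1.90, from 1.02 to 3.39 against Meis1-negative, and from 0.02 to 2.04 for Meis1-low against Meis1-negative.

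The bitter receptors lay higher in Meis1-high under every setting that gave a value, with the smallest differences from Meis1-low under normexp (0.05 for Tas2r135). For Meis1-low against Meis1-negative, differences turned positive with normexp for Tas2r108 (0.32), Tas2r118 (0.30), Tas2r140 (0.33) and Tas1r3 (0.36). They also turned positive for Tas2r108 without Meis1-low replicate 2 (0.20) and without Meis1-negative replicate 2 (0.35), and for Tas2r140 without Meis1-low replicate 1 (0.13) and without Meis1-negative replicate 2 (0.65). With arrays left out the difference ranged from -0.58 to 0.35 for Tas2r108 and from -0.76 to 0.65 for Tas2r140. The cause was not tested, nor was the part of the offset of 50 that normexp adds. Under the filter on 4 arrays, Tas2r116, Tas2r135 and Tas1r2 gave no value. Signals near background limit Tas2r116, Tas2r135, Tas1r1 and Tas1r2.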

Other observations

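Several other receptors of taste and mucosal chemosensing were measurable in Meis1-low and dim in Meis1-high. Of 14 listed, 13 had a probe and 7 were tested, 5 of which were lower in Meis1-high than in Meis1-low, with a median log2 difference of -1.05 and 0 past the threshold in limma (1 with an unadjusted p under 0.05). Over all genes tested 55.3% were lower. These 5 (Pkd2l1, Otop1, Casr, Ffar4 and Gpr35) entered the test through the Meis1-low arrays alone, which favoured that direction, and no difference from the bitter receptors was tested. Gpr35, a receptor of mucosal epithelium, had levels of -4.83 and -6.02 in the Meis1-high pools, -1.76 and -1.74 in the Meis1-low pools, and -5.65 and -0.70 in the Meis1-negative pools. Pkd2l1, a marker of sour taste cells, and Otop1, their proton channel, had levels of -3.69 and -4.62, and of -4.63 and -4.43, in Meis1-high, where neither was well above background. In Meis1-low they had levels of -2.61 and -2.65, and of -2.52 and -2.76, all well above background, as were those of the fatty acid receptor gene Ffar4 (-3.39 and -3.43). Gpr35, Pkd2l1, Otop1 and Ffar4, like Tas1r2, were thus measurable in both Meis1-low pools and in neither Meis1-high pool. On Meis1-high replicate 1, however, no probe below a level of -3.21 was marked well above background. Both Meis1-low levels of Ffar4 and of Tas1r2 lay below that level. Ffar2, a receptor for short-chain fatty acids, lay higher in Meis1-high, at -2.14 and -3.18, than in Meis1-low, at -3.84 and -3.56 (log2 difference 1.04 ± 0.68, limma adjusted p = 0.572).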
